A study of Neurospora crassa with 2 samples.

Results

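Intron-rich gene models of the filamentous fungus Neurospora crassa were followed in a strain that lacks upf1 and in the wild type. The deposited table gives each gene's start and end, its reads and its RPKM, the reads scaled to the length of the gene model and to the size of the library. Reads, RPKM and the library total together fix the length of gene model behind each RPKM value. The intronic length of a gene was taken as its span from start to end minus that model length. A model was called intron-rich from 500 bp of intronic length, with at least 20 wild-type reads. By this rule 648 genes were intron-rich, of 8311 with at least 20 wild-type reads and of 9454 in the table. The rule used positions, wild-type reads and wild-type RPKM, and it used no value of the knockout.

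The series holds 1 library of the upf1 knockout and 1 of the wild type. Hyphae of both strains came from slants kept for 2 weeks and then from 2 days of culture under constant light with 2% glucose. For each strain the RNA of 3 flasks grown independently was pooled, and polyadenylated RNA was sequenced without any further treatment. The flasks cannot be separated after pooling, so no test between the strains was possible, and the 95% intervals below, exact by the Clopper-Pearson method, hold only the error of counting.

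Introns are removed from nuclear pre-mRNA by the spliceosome, which in many eukaryotes leaves an exon junction complex on the joined exons. UPF1, an RNA helicase, is the core factor of nonsense-mediated decay, the pathway that degrades mRNAs on which translation ends early, and a retained intron often places such a stop codon in the reading frame. Mitochondrial genes of filamentous fungi carry self-splicing introns, some of which encode LAGLIDADG endonucleases, and they are transcribed and spliced apart from the nuclear system.

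The table held 56306422 reads of the knockout library and 28189643 of the wild-type library, and the recovered library totals differed by 2.02-fold. The upf1 gene itself (prd-6, NCU04242, supercontig 5, positions 5328106 to 5332056) had 2.78 RPKM in knockout hyphae and 22.6 RPKM in wild-type hyphae, from 654 and 2641 reads. It was 8.15-fold lower in the knockout (7.48 to 8.89), and it is not intron-rich, since its model covers its whole span. Ratios below are log2((knockout RPKM + 1)/(wild-type RPKM + 1)), with 2-fold on this scale as the bound for calling a gene higher or lower in the knockout. Folds compare the shares of each library's total that a gene's reads make up, with nothing added. In libraries of whole hyphae, fewer cells of a kind and less RNA per cell cannot be told apart.

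As a class, the intron-rich models differed little from other genes in their ratio of knockout to wild type. Their median log2 ratio was 0.21 (quartiles -0.22 and 0.70), and that of the other 7663 genes was 0.15 (quartiles -0.27 and 0.66), a difference of 0.060. In the knockout 101 intron-rich models were at least 2-fold higher, 15.6% of them, beside 15.1% of all genes with at least 20 wild-type reads. At least 2-fold lower were 27, or 4.17%, beside 5.33% of all these genes. The remaining 520 lay within 2-fold. The share of the intron-rich models past 2-fold upward was thus near the background, and the share past 2-fold downward was somewhat under it. Of the 27 lower models 11 overlap another gene's span, 8 of them mitochondrial. At 4-fold, 18 were higher (2.78%, beside 3.04% of all tested genes) and 8 were lower (1.23%, beside 1.18%). The side of the background on which the upward share lay changed with the setting. With 5 RPKM added instead of 1, 56 were higher (8.64%, against 9.68% of other genes). From 1 wild-type read on it was 14.4% against 15.2%, and after centring by model length 10.6% against 10.9%. By ratios of reads, 131 were higher (20.22%, against 18.05% of other genes). The share was also above other genes from 5 RPKM in 1 library (18.3% against 16.3%) and from 100 wild-type reads on (14.3% against 13.1%). The filter on 5 RPKM does not hold the minimum of 20 wild-type reads. Genes can pass it through the knockout alone, which favours a higher ratio. After centring by model length 52 were lower (8.02%, against 7.62% of other genes).

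The level of the ratios depended on how the libraries were scaled. The median over all tested genes was 0.15, and TMM scaling with edgeR moved every ratio by -0.18. Of the intron-rich models past 2-fold, 78.9% were higher in the knockout with the library totals used here, 67.3% after centring on the median gene and 64.2% after TMM scaling. The difference of 0.060 from other genes is the same under all of these scalings. A median between 0 and 0.18 below, such as those of metabolic enzymes, kinases and cytoskeletal genes, turns negative with TMM scaling.

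Intron-rich models were longer in span than other genes but not in model. Their median span was 2387 bp, against 1863 bp in other genes, and their median model length was 1656 bp, against 1728 bp. By the rule itself, which also favours a long span, they held more intronic sequence. It made up a median of 673 bp and 30.4% of the span, against 110 bp and 5.69% in other genes. The median level of intron-rich models was 24.5 RPKM in the knockout, against 18.1 RPKM in the wild type. Other genes had medians of 22.3 RPKM in knockout hyphae and 19.2 RPKM in wild-type hyphae. Intron-rich models took up 12.9% of the table's knockout reads and 13.9% of its wild-type reads. Their levels were spread toward both ends: 19.3% of them lay in the lowest eighth of wild-type RPKM, against 11.9% of other genes, and 22.8% in the highest eighth, against 11.6%. By the deposited descriptions, 359 of the 648 (55.4%) encode hypothetical proteins, against 47.3% of other genes. Another gene's span overlapped 65 of the 648 and 818 of the other 7663.

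Intron-rich models were found on all 7 chromosome-sized supercontigs and on the mitochondrial one. Their share of tested genes was lowest on supercontig 7, with 49 of 853 genes (5.74%), and highest among the nuclear supercontigs on supercontig 2, with 87 of 895 (9.72%). On supercontig 21, taken as mitochondrial because its genes are described as cytochrome b, NADH dehydrogenase subunits and the like, 9 of 23 tested genes were intron-rich (39.1%). On the nuclear supercontigs the median log2 ratio of intron-rich models ran between 0.01 on supercontig 5 and 0.32 on supercontig 6. It was above that of the other genes on supercontigs 1, 2, 3, 6 and 7 and below it on supercontigs 4 and 5.

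Across classes of intronic length the ratios showed no steady order. Genes with under 5 bp of intronic length had a median log2 ratio of 0.18 (n = 1707), and the following classes up to 100, 200, 300 and 500 bp had 0.17, 0.14, 0.15 and 0.11. The classes of intron-rich models began again at 0.22 for 500 to under 700 bp (n = 353). They stayed at 0.22 for 700 to under 1000 bp (n = 180), had 0.18 for 1000 to under 1500 bp (n = 87) and 0.27 from 1500 bp on (n = 28). The quartiles of the class from 500 to under 700 bp were -0.25 and 0.75. With ratios of reads the median of the class from 1500 bp on was 0.50, and with a minimum of 1 wild-type read it was 0.16. Among genes with at least 5 RPKM in a library, a filter that can be passed through the knockout alone, it was 0.38. The share at least 2-fold higher was 18.1%, 13.3%, 8.05% and 21.4% in the 4 intron-rich classes, beside 15.1% of all tested genes. In the classes under 500 bp, from low to high, it was 12.7%, 17.5%, 15.4%, 14.8% and 14.5%. For the 115 models with 1000 bp or more the median was 0.19, which is 0.006 above that of the class under 5 bp. Of these 115, 9 were mitochondrial, and the median of the 106 nuclear ones was 0.23.

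**Figure D1:**
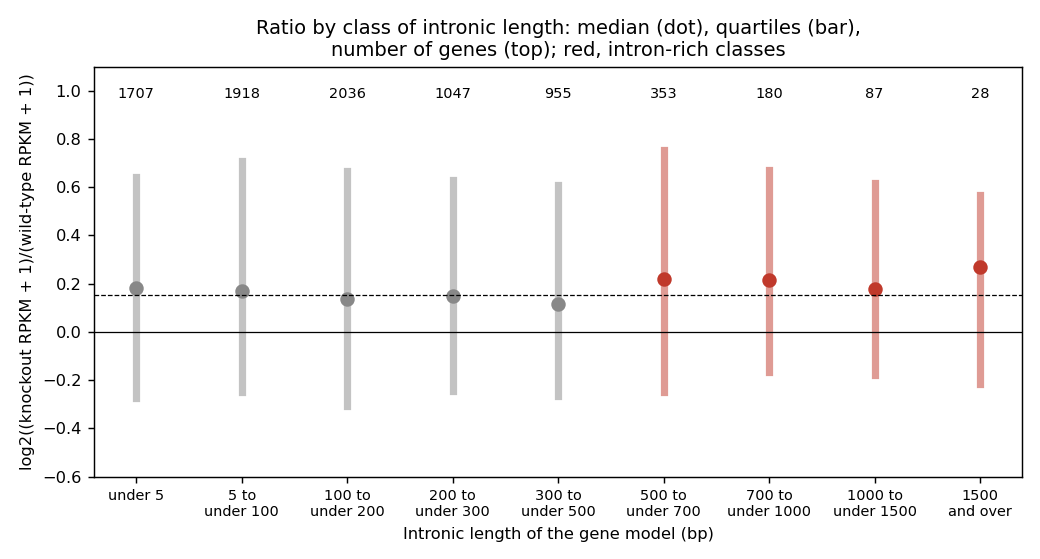
Median log2 ratio of knockout to wild type (dots) with quartiles (bars) for genes in 9 classes of intronic length in bp, with the number of genes above each; intron-rich classes are red. The medians run between 0.11 in the class from 300 to under 500 bp and 0.27 in the class from 1500 bp on.

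When intronic sequence was taken as a share of the span instead, the medians were 0.17 under 1% of the span, 0.08 from 1 to under 10%, 0.21 from 10 to under 20%, 0.27 from 20 to under 30% and 0.23 from 30 to under 40%. The class from 40 to under 50% of the span stood highest, with a median of 0.50 and 30 of its 120 genes at least 2-fold higher, beside 15.1% of all tested genes, and the class from 50% on returned to 0.24 (n = 123). In the other classes, from low to high share, 12.5%, 13.5%, 18.4%, 19.6%, 20.4% and 13.8% were at least 2-fold higher. When models with an intronic share of at least 25% of the span were taken in place of those with 500 bp, 20.9% of 794 were at least 2-fold higher, against 14.5% of other genes, so by this definition the upward share was above the background. Model length changed along with this share: its median was 2080 bp in the class from 1 to under 10%, 804.5 bp in the class from 40 to under 50% and 473 bp from 50% on. The part of model length in the order of these classes was not tested.

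Gene model length and level both moved with the ratio, so intron-rich models were set beside other genes of like length and like level. In the shortest eighth of model lengths (93 to 921 bp) the median log2 ratio was 0.26 in 129 intron-rich models and 0.46 in other genes. When genes whose model length differed between the libraries were left out and the eighths drawn again, it was 0.37 in 97 intron-rich models and 0.46 in other genes, and the gap was -0.09 in place of -0.20. In the longest 2 eighths the order was the other way: 0.24 against 0.01 from 2442 to 3128 bp (85 intron-rich models) and 0.11 against -0.09 from 3129 bp on (75 intron-rich models). Over the 8 bins the medians of other genes covered the range 0.46 to -0.09, and those of intron-rich models the range 0.31 to 0.05. The mean of the 8 differences was 0.018, and intron-rich models were above other genes in 4 of 8 bins.

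Within eighths of wild-type RPKM, intron-rich models were below other genes in the lowest 2 bins (0.50 against 0.55, and 0.36 against 0.52) and above them in the other 6. At the highest levels, from 93.3 RPKM on, both were below zero, with -0.14 in 148 intron-rich models and -0.21 in other genes. The mean difference over these 8 bins was 0.059. The bins use the wild-type level that also stands in the ratio, so a fall of the medians from low to high levels is partly built in. In eighths of the mean RPKM of both libraries the order at the top turned: the median was -0.10 in 150 intron-rich models and 0.01 in other genes, while the mean difference over the 8 bins was 0.090.

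**Figure D2:**
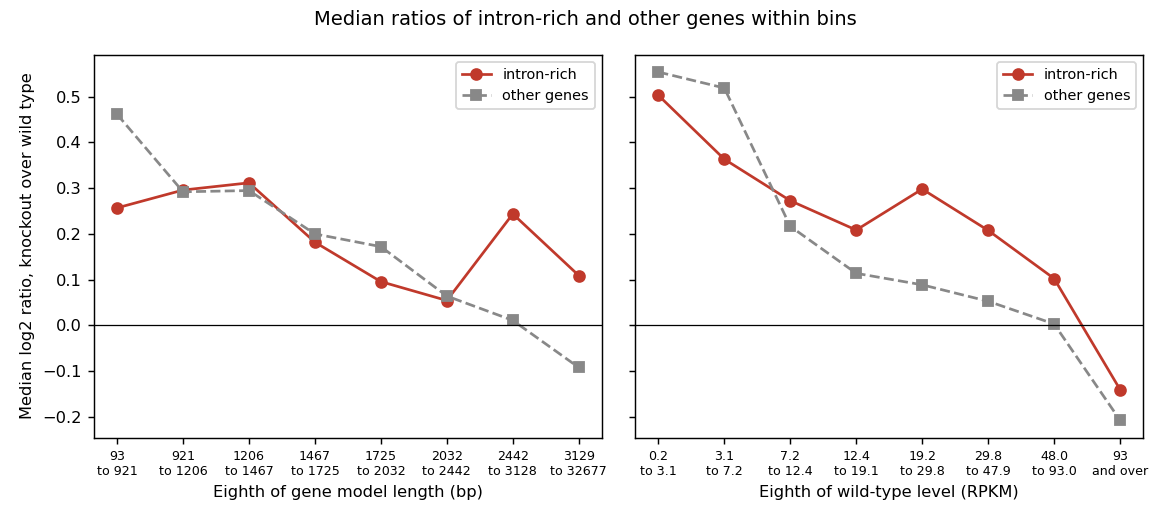
Median log2 ratio of knockout to wild type for intron-rich models (circles) and other genes (squares) within eighths of gene model length in bp and of wild-type RPKM. Intron-rich models lie below other genes among the shortest models (0.26 against 0.46, or 0.37 against 0.46 without genes whose length differs between the libraries) and above them among the longest (0.11 against -0.09).

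The 9 mitochondrial genes were low in the knockout as a group. All 9 had lower RPKM there, 8 of them by at least 2-fold, and their median log2 ratio was -2.66. They made up 0.00071% of the table's knockout reads and 0.011% of its wild-type reads. Only polyadenylated RNA was sequenced, and the part of that selection in these low reads was not tested. The 9 genes encode subunits of respiratory complexes, a LAGLIDADG endonuclease and 1 hypothetical protein. All 9 overlap another gene's span, so reads cannot be assigned to 1 gene with certainty. NADH dehydrogenase subunit 5 (NCU_16012, positions 27595 to 32288, 2546 bp intronic) had 0.375 RPKM in the knockout, against 20.6 RPKM in the wild type, from 48 and 1305 reads, and was 54.9-fold lower (41.1 to 74.8). Subunit 4L of the same complex (NCU_16008) had 0.227 RPKM in knockout hyphae and 14.3 RPKM in wild-type hyphae, and was 63.0-fold lower (33.8 to 133). Cytochrome b (NCU_16013, 2597 bp intronic), the mitochondrially encoded core of complex III, had 0.584 and 9.02 RPKM in knockout and wild type, 16.7-fold lower by reads (12.0 to 23.7). The LAGLIDADG endonuclease gene (NCU_16015), which lies inside the span of cytochrome b, was 11.5-fold lower (7.93 to 17.0).

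The least changed of the 9 was ATPase subunit 6 (NCU_16025), part of the membrane channel of ATP synthase, with 1.80 RPKM in the knockout, against 3.46 RPKM in the wild type (1.92-fold lower, 1.48 to 2.49). The 14 mitochondrial genes that are not intron-rich were low in the knockout as well, with a median log2 ratio of -1.25 and 9 of 14 at least 2-fold lower. Their model equals their span, and in all they had 398 knockout and 2821 wild-type reads, while the 9 intron-rich ones had 397 knockout and 3169 wild-type reads. Reads were lower in both sets, but the sets are not separate, since 9 of the 14 overlap another gene's span. NCU_16010, for one, lies inside the span of NADH dehydrogenase subunit 5 (NCU_16012). Without the mitochondrial supercontig, 19 intron-rich models were at least 2-fold lower (2.97%, against 5.32% of other nuclear genes), 101 were higher (15.8%, against 15.1%), and the median was 0.22, against 0.15 in other genes.

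Intron-rich cytosolic ribosomal protein genes, which sit at the top of the range of levels, had lower RPKM in the knockout almost without exception. Of 19, the median was 1072 RPKM in knockout hyphae and 1736 RPKM in wild-type hyphae, the median log2 ratio was -0.57, and 18 of 19 were below zero. A single one passed 2-fold: S24 (NCU07182), a protein of the small subunit, had 1032 RPKM in the knockout, against 2077 RPKM in the wild type (2.01-fold lower, 1.99 to 2.04). S22 (NCU06431) was the one above zero, with 1692 RPKM in knockout hyphae and 1221 RPKM in wild-type hyphae. The other 85 genes taken as cytosolic ribosomal proteins had a median of -0.29, with 30 above zero. Of these 85, 2 were at least 2-fold higher and 5 at least 2-fold lower. They were picked by words in their descriptions, and genes of mitochondrial ribosomes not described as mitochondrial may be among them. Their wild-type levels ran from 10.1 to 6259 RPKM, against 713 to 3687 RPKM in the 19. Most of these genes lay within 2-fold in both sets.

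The highest members of this set were S12 (NCU00971), with 2492 RPKM in the knockout, against 3687 RPKM in the wild type, and L44 (NCU00706), with 2505 RPKM in knockout hyphae and 3659 RPKM in wild-type hyphae. L19 (NCU05804) had 2127 and 2925 RPKM in knockout and wild type, S18 (NCU00475) 2105 and 2737 RPKM, S29 (NCU03738) 2018 and 2487 RPKM, and L27 (NCU01827) 1734 and 2254 RPKM. All 6 lay between 1.23-fold and 1.48-fold lower in the knockout. S18 overlaps another gene.

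**Figure D3:**
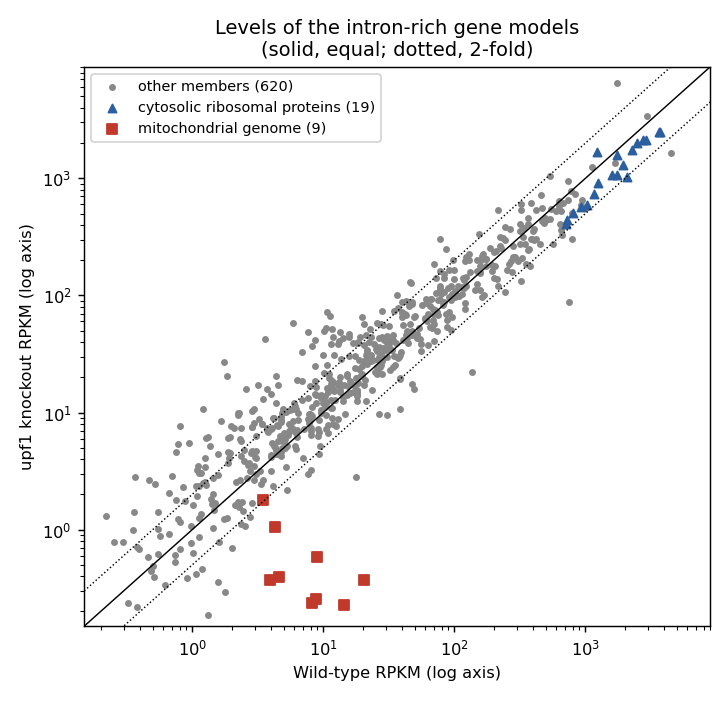
RPKM of the 648 intron-rich models in the upf1 knockout (vertical) against the wild type (horizontal), both on log axes; squares are the 9 mitochondrial genes, triangles the 19 cytosolic ribosomal protein genes, the solid line equal values and the dotted lines 2-fold. The mitochondrial genes lie below the lower 2-fold line except ATPase subunit 6, and 18 of the 19 ribosomal protein genes lie under the line of equality at the upper end, with S22 above it.

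Intron-rich genes of central metabolism moved both ways. Among 76 metabolic enzymes the median log2 ratio was 0.06, with 11 at least 2-fold higher and 10 at least 2-fold lower, of which 6 were mitochondrial; the 852 other metabolic enzymes had a median of 0.15, with 140 higher and 68 lower. Glyceraldehyde 3-phosphate dehydrogenase (gpd-1, NCU01528, supercontig 2, positions 3180356 to 3182245), a glycolytic enzyme, had 1644 RPKM in the knockout, against 4530 RPKM in the wild type, from 122977 and 167848 reads. It was 2.76-fold lower (2.74 to 2.78). Pyruvate kinase (ace-8, NCU06075), the last step of glycolysis, had 302 RPKM in knockout hyphae and 784 RPKM in wild-type hyphae (2.59-fold lower, 2.56 to 2.63), and its span overlaps another gene. Adenylosuccinate synthetase (ad-8, NCU09789), of adenine synthesis, and asparagine synthetase 2 (NCU04303) were the other 2 nuclear enzymes counted as lower, with 134 and 107 RPKM in the knockout, against 321 and 244 RPKM in the wild type.

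Phosphoenolpyruvate carboxykinase (acu-6, NCU09873, supercontig 6, positions 1825084 to 1828323, 1047 bp intronic), which opens gluconeogenesis, was higher in the knockout. It had 67.2 RPKM there, against 11.3 RPKM in the wild type, from 8790 and 731 reads (5.96-fold higher, 5.52 to 6.43). Arginase (NCU02084), which splits arginine into ornithine and urea, had 72.5 RPKM in the knockout, against 10.7 RPKM in the wild type (6.78-fold, 6.12 to 7.54). Cytochrome c (cyc-1, NCU01808), the nuclear-encoded electron carrier between complexes III and IV, had 6576 RPKM in knockout hyphae and 1740 RPKM in wild-type hyphae, from 349483 and 45801 reads. It was 3.78-fold higher (3.74 to 3.82), and in the knockout it had the highest level of all intron-rich models. Adenosine deaminase (NCU00438) was 3.74-fold higher (3.35 to 4.18), and NAD-specific glutamate dehydrogenase (gdh-1, NCU00461), which releases ammonium from glutamate, was 2.33-fold higher (2.22 to 2.44), with a log2 ratio of 0.99 after TMM scaling. Phosphoglycerate mutase (NCU11201) had 30.9 RPKM in the knockout, against 12.0 RPKM in the wild type.

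Carriers and pumps were mostly within 2-fold. Of 21 intron-rich transporters, permeases and carriers 3 were at least 2-fold higher and none lower, with a median log2 ratio of 0.45; the 314 others had a median of 0.04, with 42 higher and 34 lower. The 3 were the mitochondrial dicarboxylate transporter NCU10732 (41.7 RPKM in knockout hyphae and 8.61 RPKM in wild-type hyphae) and 2 members of the major facilitator superfamily, NCU06159 (4.63 and 0.751 RPKM in knockout and wild type) and NCU03789 (7.41 and 2.35 RPKM). The urea transporter NCU01977 came just short of 2-fold, with 1048 RPKM in the knockout, against 537 RPKM in the wild type. The ADP/ATP carrier (aac, NCU09477), which exchanges nucleotides across the inner mitochondrial membrane, had 3382 RPKM in knockout hyphae and 2951 RPKM in wild-type hyphae. The plasma membrane proton pump pma-1 (NCU01680) had 658 RPKM in the knockout, against 948 RPKM in the wild type, and subunit vma-10 (NCU05118) of the vacuolar proton pump had 314 and 224 RPKM in knockout and wild type.

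Intron-rich genes described as transcription factors or regulators had a median log2 ratio of 0.75 (n = 9), with 3 at least 2-fold higher and none lower; 92 others had a median of 0.00, with 11 higher and 2 lower. The largest ratio was that of NCU09805 (supercontig 1, positions 4105336 to 4108496, 1589 bp intronic), described as a C6 transcription factor in the deposited table and listed by RefSeq under the symbol gh13-2. It had 58.1 RPKM in knockout hyphae and 5.92 RPKM in wild-type hyphae, from 5448 and 275 reads (9.81-fold, 8.69 to 11.1). The names disagree on what this gene encodes. The sirtuin gene nst-7 (NCU07624) had 13 RPKM in the knockout, against 3.45 RPKM in the wild type (3.76-fold, 3.14 to 4.53). The activator of sulfur acquisition cys-3 (NCU03536) had 333 RPKM in knockout hyphae and 155 RPKM in wild-type hyphae (2.15-fold, 2.11 to 2.19); it overlaps another gene, and after TMM scaling its log2 ratio was 0.92, under 2-fold.

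Regulators of development that carry the description of a hypothetical protein also varied. The conidiation regulator fl (NCU08726, supercontig 2, positions 3805778 to 3809444, 682 bp intronic) had 17.7 RPKM in the knockout, against 47.2 RPKM in the wild type (2.67-fold lower, 2.55 to 2.80). Markers of conidia, the asexual spores, did not move one way: con-6 had 642 RPKM in knockout hyphae and 27.4 RPKM in wild-type hyphae, con-8 had 228 and 6.25 RPKM in knockout and wild type, con-10 had 18.0 and 4.91 RPKM, con-13 had 5.56 and 1.12 RPKM, and the rodlet protein gene eas had 1619 and 15983 RPKM. None of these 5 is intron-rich, and the part of spore formation in the ratios was not tested. The gene ada-1 (NCU00499), which overlaps another gene, had 177 RPKM in the knockout, against 377 RPKM in the wild type. The gene sub-2 (NCU07007) had 6.22 RPKM in knockout hyphae and 1.94 RPKM in wild-type hyphae (3.20-fold, 2.66 to 3.88). The gene fsd-1 (NCU09915), named for female sexual development, is described below with the models of longest intronic length. Of the sexual markers, asd-1 had 74.2 RPKM in the knockout, against 16.1 RPKM in the wild type, and poi-2 had 1.54 and 7.09 RPKM in knockout and wild type.

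Intron-rich signalling and cytoskeletal genes lay mostly within 2-fold of their wild-type levels. Small GTPases and their regulators made up 15 intron-rich models, 18.8% of that list, and the median log2 ratio was -0.04 in these and -0.04 in the 65 others, of which 6 were at least 2-fold higher and 1 was lower. The single intron-rich one past 2-fold was a Rab18/RabC-family GTPase (NCU01453), with 56.7 RPKM in knockout hyphae and 27.7 RPKM in wild-type hyphae, and its log2 ratio was 0.83 after TMM scaling, under 2-fold. The cell wall and polarity GTPase rho-1 (NCU01484) had 453 RPKM in the knockout, against 539 RPKM in the wild type, and its inhibitor rdi-1 (NCU06561) had 210 and 327 RPKM in knockout and wild type. The Ras-family GTPase krev-1 (NCU02167) had 68.7 RPKM in knockout hyphae and 43.0 RPKM in wild-type hyphae.

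Among 16 genes of the cytoskeleton and of vesicle traffic, with a median of 0.07, 1 was past 2-fold, while the 98 others had a median of -0.08 with 4 higher and none lower. This was NCU04343, described as an adaptin ear-binding protein and listed by RefSeq as egt-1. It had 540 RPKM in the knockout, against 216 RPKM in the wild type. Its place in this list rests on the deposited description alone, and the symbol was not checked against it. Alpha tubulin (tba-1, NCU09132) had 197 RPKM in knockout hyphae and 305 RPKM in wild-type hyphae, and beta tubulin (Bml, NCU04054), its partner in microtubules, had 245 and 363 RPKM in knockout and wild type. Of 11 kinases and phosphatases (median 0.10; 202 others had -0.12, with 11 higher and 10 lower) the one past 2-fold was the phytochrome-like histidine kinase phy-2 (NCU05790), a photoreceptor homologue, with 2.64 RPKM in the knockout, against 0.472 RPKM in the wild type, from 552 and 46 reads, and with 5 RPKM added its log2 ratio was 0.48. The model length behind the knockout RPKM leaves phy-2 only 321 bp of intronic length, under the threshold. By the wild-type RPKM it has 523 bp. The kinase stk-46 (NCU06638) had 4.12 RPKM in knockout hyphae and 7.05 RPKM in wild-type hyphae. For the kinase activator mob-2b (NCU07460) the levels were 29.3 and 21.5 RPKM in knockout and wild type.

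Intron-rich genes of nuclear RNA and protein handling were within 2-fold but for 1. Few of the other genes in these lists were past it either. Of 106 other RNA genes 10 were higher and none lower, of 43 other chromatin genes 1 was higher and 1 lower. Of 90 other ubiquitin and proteasome genes 2 were higher and 2 lower. The 9 RNA-binding, RNA helicase and splicing genes had a median log2 ratio of 0.53, and the 106 others had 0.12; the splicing protein NCU10810 had 140 RPKM in the knockout, against 72.8 RPKM in the wild type (1.92-fold, 1.86 to 1.98). The 5 chromatin genes lay between -0.56 and 0.45, among them the histone variant hH2Az (NCU05347), with 138 RPKM in knockout hyphae and 100 RPKM in wild-type hyphae. The remodelling genes crf2-1 (NCU08919) and pbd-1 (NCU02354) had 12.5 and 9.46 RPKM in the knockout, against 14.1 and 10.5 RPKM in the wild type. Of 8 ubiquitin and proteasome genes, the proteasome gene pcb-1 (NCU09290) had 240 RPKM in the knockout, against 209 RPKM in the wild type. The exception was an F-box protein gene (NCU07257, supercontig 4, positions 4603416 to 4606178, 514 bp intronic), of a family whose members often select targets for ubiquitin ligases. It had 88.0 RPKM in knockout hyphae and 752 RPKM in wild-type hyphae, from 11799 and 49945 reads, and was 8.55-fold lower (8.38 to 8.72), which was the largest decrease of any nuclear intron-rich model on the log2 scale.

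Of the genes described as parts of nonsense-mediated decay, the exon junction complex or cap binding, 1 of 7 was intron-rich. NCU01939, described as a nonsense-mediated mRNA decay protein (719 bp intronic), had 71.8 RPKM in the knockout, against 74.1 RPKM in the wild type (1.03-fold lower). The exon junction protein Y14 (NCU03226, 165 bp intronic) is not intron-rich and was 3.92-fold higher (3.75 to 4.09), with 282 RPKM in knockout hyphae and 71.9 RPKM in wild-type hyphae. Its partner mago (NCU04405) had 208 RPKM in the knockout, against 169 RPKM in the wild type.

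**Figure D4:**
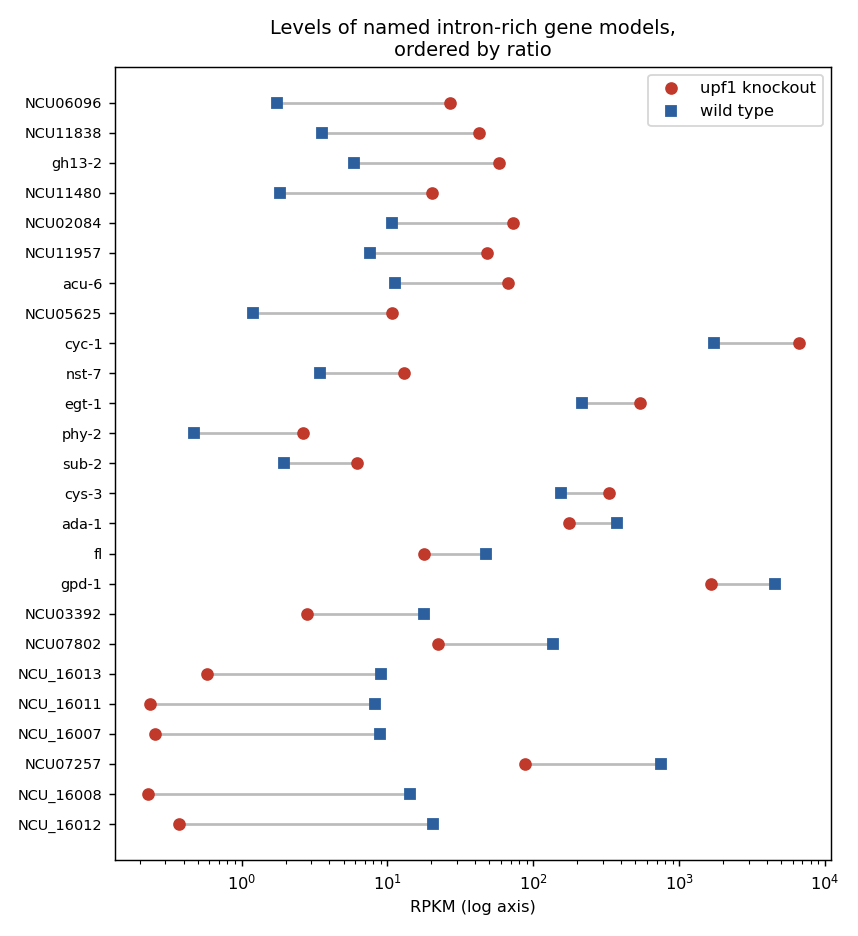
RPKM of named intron-rich models in the upf1 knockout and the wild type, joined by a line for each gene, on a log axis. Arginase and acu-6 lie to the right in the knockout (72.5 and 67.2 RPKM), while the F-box gene NCU07257 lies to the left (88.0 against 752 RPKM).

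Of the 18 intron-rich models at least 4-fold higher in the knockout, 14 encode hypothetical proteins, beside 130 of 235 among other genes at least 4-fold higher. The 359 intron-rich hypothetical proteins had a median log2 ratio of 0.30 with 68 at least 2-fold higher (18.9%) and 11 lower (3.06%). The 3628 other hypothetical proteins had a median of 0.22 with 17.4% higher and 5.76% lower. The 289 intron-rich genes with another description had a median of 0.09, with 33 higher (11.4%) and 16 lower (5.54%). The 4035 others with another description had a median of 0.09, with 13.1% higher and 5.13% lower. The highest ratio was that of NCU06096 (supercontig 7, positions 2445497 to 2446571, 613 bp intronic), with 27.0 RPKM in knockout hyphae and 1.76 RPKM in wild-type hyphae. Its 743 and 24 reads give a 15.3-fold difference with a wide interval (10.2 to 24.1). NCU11838 had 42.7 RPKM in the knockout, against 3.57 RPKM in the wild type (12.0-fold, 10.7 to 13.5), and NCU11480 had 20.3 and 1.83 RPKM in knockout and wild type (11.1-fold, 9.23 to 13.5). NCU05625 and NCU11957 were 8.94-fold (6.80 to 12.0) and 6.36-fold (5.45 to 7.47) higher. At the other end, NCU07802 had 22.3 RPKM in knockout hyphae and 136 RPKM in wild-type hyphae, and NCU03392 had 2.82 and 17.8 RPKM in knockout and wild type.

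Of the 8 models with the most intronic sequence, 2 were mitochondrial, and the others lay within 2-fold by RPKM except NCU06011. The longest intronic length was that of fsd-1 (supercontig 4, positions 5296170 to 5303095), with 3658 bp beside a model of 3268 bp. It had 19.6 RPKM in the knockout, against 17.6 RPKM in the wild type (1.11-fold, 1.05 to 1.18), a log2 ratio of 0.14 that was -0.04 after TMM scaling. Its span overlaps that of NCU09917, another of the 8 longest, so reads there cannot be assigned to 1 gene with certainty. NCU09969 (3573 bp) had 9.74 RPKM in knockout hyphae and 7.84 RPKM in wild-type hyphae, and NCU00768 (3130 bp) had 54.2 and 88.5 RPKM in knockout and wild type. NCU06011 (2502 bp) had 2.80 RPKM in the knockout, against 0.367 RPKM in the wild type, from 605 and 29 reads. The model behind its RPKM was 3627 bp in the knockout and 2676 bp in the wild type. By the knockout model NCU06011 has 1551 bp of intronic length. For NCU09917 the models were 744 and 473 bp in knockout and wild type, and by reads it was 3.03-fold higher (2.11 to 4.46).

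For part of the intron-rich models the intronic length was itself uncertain, because the model length behind the RPKM differed between the libraries. This held, by more than 0.1%, for 106 intron-rich models (16.4%), against 114 other genes (1.49%). The model was longer in the knockout for 86 of the 106 and shorter for 20. The rule takes the wild-type length, so a model that is short in the wild type is the more likely to count as intron-rich, and 32 of the 648 reached 500 bp by the wild-type length but not by the knockout length. Differing lengths went with low depth: 62 of the 125 intron-rich models with under 100 wild-type reads had them (49.6%), against 33 of 202 from 100 to under 1000 reads (16.3%) and 11 of 321 from 1000 reads on (3.43%). Among other genes the shares in the same 3 ranges were 7.23%, 1.20% and 0.59%, lower at each depth. Over all depths the share also rose with intronic length among other genes, from 0.06% under 5 bp to 5.76% from 300 to under 500 bp. It was 11.0% from 500 to under 700 bp and 35.7% from 1500 bp on, so differing lengths were not particular to intron-rich models.

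Such a gene can be higher by reads and lower by RPKM. NCU03014 (935 bp intronic) had a model of 333 bp in the knockout and 93 bp in the wild type; its RPKM was 9.72 in the knockout, against 26.6 in the wild type, while its 193 and 73 reads make it 1.31-fold higher in the knockout. NCU03620 had a model of 459 bp in the knockout and 150 bp in the wild type, 3.25 RPKM and 8.12 RPKM, and was 1.22-fold higher by reads. Both are among the 19 nuclear models counted as at least 2-fold lower. NCU03974 (2591 bp intronic by the wild-type length) had a model of 5303 bp in the knockout and 2985 bp in the wild type, 4.38 and 4.01 RPKM, and 1385 and 354 reads (1.94-fold, 1.72 to 2.18).

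In all, 13 of the 106 had opposite signs by the 2 measures, 10 of them lower by RPKM and higher by reads. The 106 together had a median log2 ratio of 0.25 from RPKM and 0.54 from reads. The 542 intron-rich models with equal lengths had a median of 0.21, with 82 at least 2-fold higher and 22 lower.

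**Figure D5:**
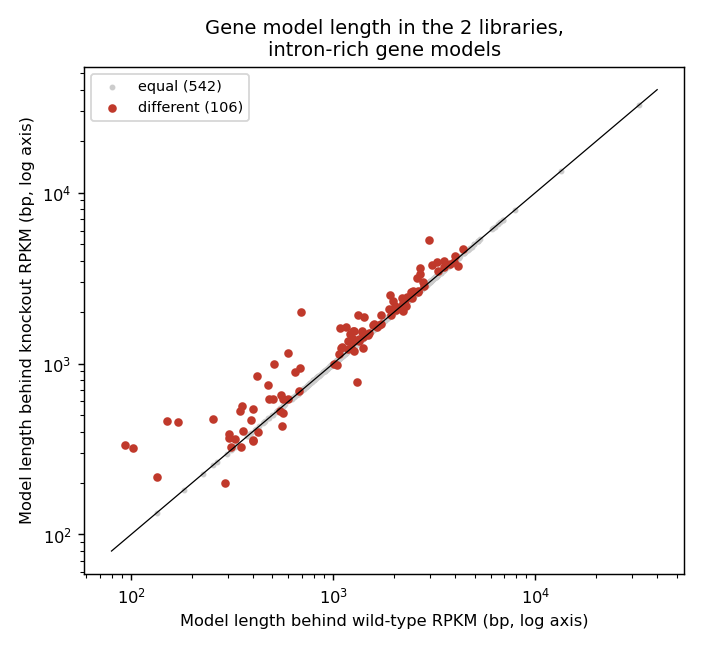
Model length behind the knockout RPKM (vertical) against that behind the wild-type RPKM (horizontal) for the 648 intron-rich models, both in bp on log axes, with the line of equality. Of the 106 models that differ, 86 lie above the line, and the gaps reach 3.58-fold.

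At the threshold itself, the models just inside were NCU09810, a succinyl-CoA synthetase with 500 bp, with 51.1 RPKM in the knockout, against 94.1 RPKM in the wild type, and NCU05825 with 501 bp, with 1.16 RPKM in knockout hyphae and 0.806 RPKM in wild-type hyphae. Just outside, with 499 bp each, were NCU04634, with 2.31 RPKM in the knockout, against 2.09 RPKM in the wild type, and NCU11913, with 40.7 RPKM in knockout hyphae and 28.7 RPKM in wild-type hyphae.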

How the data were processed

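The authors' deposited table holds raw read counts and RPKM values of 9454 genes for both libraries, per the file headers. The submitters' processing notes name Bowtie 0.12.2. The genome build, annotation version, counting method and strand use were not given in the sources used here. Coordinates are those of the deposited table; its strand column reads minus for 74.2% of genes and was not used.

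Library totals, 59645570 reads for the knockout and 29546475 for the wild type, were recovered as the most frequent value of reads over RPKM and span (1886 and 1871 genes). With them, the model lengths of all 8311 genes with at least 20 wild-type reads came out whole within 0.01 bp. A model length that falls short of the span was read as intronic length; 30 genes whose model exceeds their span were put in the class under 5 bp.

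A pseudocount of 1 RPKM was added to both levels before the log2 of knockout over wild type was taken. Printed folds come from reads and library totals, with exact Clopper-Pearson 95% intervals (scipy 1.17.1). These cover counting error only, since reads that carry no molecular identifiers may be copies of 1 molecule. With 1 pooled library per strain there is no p-value. TMM factors came from edgeR 4.0.16. The recovery of library totals, model lengths and 4-fold changes was tested on simulated data. There each gene had the same model length in both libraries, and TMM scaling was not part of that test. No intron-rich model had 0 knockout reads.

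Genes were matched to a RefSeq table for symbols only: 601 of the 648 matched and 108 had a symbol. Gene lists were made by words in the deposited descriptions, because the RefSeq table has no product names, and a gene may be in several. Members and lists were chosen with earlier results of these data known. Genes named are the 8 with the longest intronic length, the 8 highest and 8 lowest ratios, the 8 highest wild-type levels, in each list up to 3 genes with a symbol and the largest ratios, and those at the threshold. NCU03014, NCU03620, the list members past 2-fold without a symbol, ace-8, ad-8, gdh-1, NCU10810, NCU01977, S22 and ATPase subunit 6 were chosen on top of that once their values had been seen. Alternatives covered the pseudocount, scaling, depth filters, overlaps, thresholds of intronic length and bins.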

Additional observations from a re-analysis of the deposited data

How the results depend on the processing

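No paired analysis was possible because each strain is 1 pooled library without replicate numbers, and for the same reason no replicate could be left out. The difference in median log2 ratio between intron-rich models and other genes, 0.060, stayed above zero under all 18 alternatives run: 0.037 with a pseudocount of 5 RPKM, 0.092 from reads, 0.069 from 100 wild-type reads on, 0.079 from 5 RPKM in 1 library, 0.094 from 60 reads in sum, 0.023 from 1 wild-type read, 0.028 after centring by model length, 0.081 without overlapping genes, 0.069 without mitochondrial genes, 0.0026 with a threshold of 300 bp, 0.033 with 1000 bp and 0.15 for an intronic share of at least 25% of the span. The count of 101 higher models was 56 with a pseudocount of 5 RPKM, 239 at 300 bp (14.9%, against 15.2% of other genes), 13 at 1000 bp (11.3%, against 15.2%) and 166 at 25% of the span (20.9%, against 14.5%). The count of 27 lower models was 52 after centring by model length (8.02%, against 7.62% of other genes) and 16 without overlapping genes (2.74%, against 5.45%). It was 70 at 300 bp (4.37%, against 5.56%) and 9 at 1000 bp (7.83%, against 5.30%), of which 1 was nuclear. After centring by length 57.0% of calls were higher.

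The difference between models with 1000 bp or more and those under 5 bp, 0.006, was 0.016 with a pseudocount of 5 RPKM, 0.041 from reads, 0.039 from 100 wild-type reads on, 0.088 from 5 RPKM, 0.061 from 60 reads in sum, 0.095 after length centring, 0.022 with knockout lengths, 0.021 without genes whose length differs, 0.081 without overlapping genes and 0.051 without mitochondrial genes, and it turned to -0.015 from 1 wild-type read on. The cause was not tested. Of these values, 0.088 and 0.061 came from the filters that genes can pass through the knockout alone. Within bins of length, 0.018 became 0.011 with sixteenths, 0.049 with bins of span and 0.032 without genes whose length differs; within bins of level, 0.059 became 0.090 with mean RPKM. For upf1, -2.65 became -2.98 and -1.83 with pseudocounts of 0.1 and 5 RPKM, -3.03 from reads, -2.80 after median centring and -2.83 with TMM. Leaving out mitochondrial genes, requiring 500 bp in both libraries, the bins without differing lengths and the settings for upf1 were chosen after seeing the data. Of 46 models past 2-fold that are named by the rule, called in a list or named for their lengths, 35 stayed past it with a pseudocount of 5 RPKM (phy-2, sub-2, NCU06011, NCU06159, NCU03789, NCU01453, NCU03620 and 4 others did not), 41 with TMM (cys-3, gdh-1, NCU01453, NCU08750 and NCU09811 did not), and 44 from reads (NCU03014 and NCU03620 did not). Counting error limits the 125 models with under 100 wild-type reads, and variation between cultures was not measured.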

Other observations

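Intron-rich models with fewer than 20 wild-type reads are outside the set described above, since the minimum is on the wild type. By the length behind the knockout RPKM, 68 such genes with at least 20 knockout reads had 500 bp or more of intronic length. Their median level was 1.31 RPKM in the knockout, against 0.467 RPKM in the wild type, and their median log2 ratio was 0.50. The choice on low wild-type reads fixes much of that direction, and no count over them is read as a result. The gene with the highest level among them was NCU00732, described as a trichothecene C-15 hydroxylase (supercontig 1, positions 7386748 to 7388890, 607 bp intronic), with 179 RPKM from 16440 reads in the knockout and 0.158 RPKM from 5 reads in the wild type. NCU07810, a hypothetical protein with 1719 bp of intronic length, had 14.1 RPKM in the knockout, against 0.581 RPKM in the wild type.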
